A study of Mus musculus with 12 samples.

Results

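Stretches of chromatin that carried H3K27ac over at least 3000 bp in both GFP+ cortical interneurons (CINs) and GFP- cells of the same cortex (non-CINs) were examined. They were chosen by the length of the H3K27ac calls themselves. In each of the 4 H3K27ac peak lists, peaks separated by at most 500 bp were joined, and 27742 stretches on the assembled chromosomes were covered by all 4 merged lists. Of these, 933 were 3000 bp or longer (3.36%) and are called broad domains here. They held 4.52 Mb, or 15.4% of the 29.2 Mb covered by all 4 lists. The cells came from cortex of Gad67-GFP heterozygote pups at postnatal day 2, pooled from 2 to 3 litters, and were sorted on GFP made from the Gad67 (Gad1) locus, so that both populations carried the same allele and the GFP- cells were the remaining mixture of cells in the tissue. Native ChIP for H3K27ac and for H3K27me3 was performed in 2 replicates of each population. The peaks were called against matched input chromatin. In such bulk samples, a mark in fewer cells and less of the mark per cell cannot be told apart.

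H3K27ac is the acetylation of lysine 27 of histone H3 and marks active promoters and enhancers, whereas trimethylation of the same residue, H3K27me3, is laid down by Polycomb repressive complex 2 and marks silenced genes. A single nucleosome tail cannot carry both at that lysine. Most H3K27ac peaks are short, and the long ones tend to lie at genes for transcription factors and other regulators that a cell type uses heavily. In the newborn cortex, interneurons have migrated in from the ventral telencephalon, whereas pyramidal neurons and astrocytes arise from cortical progenitors.

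The H3K27ac lists held between 46040 and 62505 peaks and the H3K27me3 lists between 36662 and 45081. Depth is described only by these counts, and read numbers were not used here. The population labels were checked at marker promoters. H3K27ac peaks lay over TSSs of Gad1 and Gad2, which encode the enzymes of GABA synthesis, in both CIN lists and in neither non-CIN list. Of 23 interneuron identity genes, 15 and 12 had an H3K27ac peak over a TSS in the CIN lists against 5 and 7 in the non-CIN lists. The pyramidal neuron genes did not mark the other side, since 13 and 10 of 20 had a peak in CINs against 9 and 9 in non-CINs. Olig1, a gene of the oligodendrocyte lineage, had a peak in both non-CIN lists and in neither CIN list. Of 10 genes of that lineage, 5 and 3 had a peak in CINs against 6 and 5 in non-CINs. Lhx6, a factor of interneurons, and the pyramidal neuron genes Neurod2, Slc17a7 and Tbr1 had no H3K27ac peak over a TSS in any list. Markers of microglia (1 of 10 in every list) and of endothelial cells and pericytes (0 to 2 of 10) were near 0 in all 4 lists.

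The leading domains are shown first by the sequences that they hold, beginning with the microRNA miR-9, a regulator of neurogenesis that is made from 3 separate genes. All 3 genes lay in broad domains, which ranked 1, 2 and 5 by length. The same mature sequences are encoded at Mir9-1 (chr3:88215598-88215686), Mir9-2 (chr13:83738814-83738885) and Mir9-3 (chr7:79505264-79505353), all on the plus strand, and are shown with the seed (bases 2 to 8) in capitals:
mmu-miR-9-5p: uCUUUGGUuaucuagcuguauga
mmu-miR-9-3p: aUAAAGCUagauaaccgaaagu
The hairpins differ between the 3 genes outside these parts, and are shown with both mature sequences in capitals:
Mir9-1 hairpin: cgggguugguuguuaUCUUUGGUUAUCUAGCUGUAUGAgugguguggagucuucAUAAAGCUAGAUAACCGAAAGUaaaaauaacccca
Mir9-2 hairpin: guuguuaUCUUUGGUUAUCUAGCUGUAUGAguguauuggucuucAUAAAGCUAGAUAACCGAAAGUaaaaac
Mir9-3 hairpin: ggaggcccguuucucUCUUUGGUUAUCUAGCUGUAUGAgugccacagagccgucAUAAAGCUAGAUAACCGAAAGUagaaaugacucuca
Of 1005 hairpins in the RefSeq table (GRCm38.p6), 21 lay inside 16 of the broad domains. They included Mir125b-1 in a domain of 12374 bp, Mir99a and Mirlet7c-1 together in a domain of 7497 bp, and Mirlet7i in a domain of 3974 bp. The let-7 sequences share the seed GAGGUAG, whereas miR-125b and miR-99a have seeds of their own:
mmu-let-7c-5p: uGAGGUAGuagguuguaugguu
mmu-let-7i-5p: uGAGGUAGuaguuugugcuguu
mmu-miR-125b-5p: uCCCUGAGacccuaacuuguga
mmu-miR-99a-5p: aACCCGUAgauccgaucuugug

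Promoters inside broad domains were mostly rich in CpG dinucleotides, as were promoters in shorter shared stretches. The RefSeq promoters, which reach from 250 bases before to 50 bases after a start site, were searched for CG, which reads the same on both strands. Among 715 promoters wholly inside a broad domain the median was 21 CG, beside 23 among the 7405 inside a shorter shared stretch and 5 among the 24731 not inside any. At least 1 CG was present in 94.6% of all 32851 promoters in the table, and 20 or more in 54.3% of those inside broad domains, 64.1% of those inside shorter stretches and 26.5% of all. Below are promoters of Meis2 and Sox2, which had long domains with no called difference between populations. Then come Emx2, Dmrta2 and Olig2, whose domains were called higher in non-CINs and also carried H3K27me3, and Map2, whose domain was called higher in CINs. These promoters hold 13, 27, 26, 26, 25 and 37 CG, in this order, and CG is in capitals (GRCm38.p6):
Meis2 (chr2:116064570-116064869, minus strand): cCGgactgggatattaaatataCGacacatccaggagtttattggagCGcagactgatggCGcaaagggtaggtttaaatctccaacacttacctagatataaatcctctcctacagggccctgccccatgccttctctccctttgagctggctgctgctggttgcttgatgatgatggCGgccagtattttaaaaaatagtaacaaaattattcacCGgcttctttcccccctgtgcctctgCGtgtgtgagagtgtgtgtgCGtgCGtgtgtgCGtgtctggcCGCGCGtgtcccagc
Sox2 (chr3:34649745-34650044, plus strand): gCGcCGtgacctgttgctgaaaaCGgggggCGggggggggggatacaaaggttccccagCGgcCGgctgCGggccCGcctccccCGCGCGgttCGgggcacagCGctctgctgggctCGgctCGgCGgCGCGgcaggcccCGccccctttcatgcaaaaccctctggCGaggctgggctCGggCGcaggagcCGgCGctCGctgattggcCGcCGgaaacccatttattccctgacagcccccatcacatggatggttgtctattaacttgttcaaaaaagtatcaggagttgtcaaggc
Emx2 (chr19:59458440-59458739, plus strand): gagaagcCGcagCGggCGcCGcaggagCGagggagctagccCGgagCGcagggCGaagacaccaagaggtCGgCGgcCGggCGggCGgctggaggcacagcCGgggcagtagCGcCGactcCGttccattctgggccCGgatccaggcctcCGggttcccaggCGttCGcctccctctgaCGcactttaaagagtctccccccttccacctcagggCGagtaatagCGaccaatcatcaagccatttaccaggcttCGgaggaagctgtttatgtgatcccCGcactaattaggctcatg
Dmrta2 (chr4:109977775-109978074, plus strand): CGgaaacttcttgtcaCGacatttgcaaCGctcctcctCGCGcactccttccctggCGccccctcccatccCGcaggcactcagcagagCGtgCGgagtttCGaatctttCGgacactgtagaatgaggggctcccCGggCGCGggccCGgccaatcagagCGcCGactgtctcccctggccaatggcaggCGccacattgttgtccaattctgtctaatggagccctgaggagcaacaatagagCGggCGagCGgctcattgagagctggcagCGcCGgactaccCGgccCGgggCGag
Olig2 (chr16:91225300-91225599, plus strand): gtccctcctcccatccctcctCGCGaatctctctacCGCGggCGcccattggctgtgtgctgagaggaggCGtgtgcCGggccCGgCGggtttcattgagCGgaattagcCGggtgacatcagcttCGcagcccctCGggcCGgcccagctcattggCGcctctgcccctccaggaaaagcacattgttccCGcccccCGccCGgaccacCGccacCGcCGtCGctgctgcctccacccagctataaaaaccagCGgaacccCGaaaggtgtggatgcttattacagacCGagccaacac
Map2 (chr1:66175079-66175378, plus strand): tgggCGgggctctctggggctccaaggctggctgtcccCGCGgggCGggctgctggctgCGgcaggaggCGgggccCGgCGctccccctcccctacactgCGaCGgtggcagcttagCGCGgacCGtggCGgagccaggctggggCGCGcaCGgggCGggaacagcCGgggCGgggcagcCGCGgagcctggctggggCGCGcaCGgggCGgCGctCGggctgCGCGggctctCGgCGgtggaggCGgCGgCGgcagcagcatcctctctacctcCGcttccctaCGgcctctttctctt
Broad domains without a TSS had a median of 11.7 CG per kb in their central 300 bases. For comparison, these bases are shown of the longest broad domain between genes, which lay near Gm26913 and holds 2 CG there. Also shown is a domain within an intron of Celf2, which holds 43 and is far above that median:
near Gm26913 (chr13:84756008-84756307, plus strand): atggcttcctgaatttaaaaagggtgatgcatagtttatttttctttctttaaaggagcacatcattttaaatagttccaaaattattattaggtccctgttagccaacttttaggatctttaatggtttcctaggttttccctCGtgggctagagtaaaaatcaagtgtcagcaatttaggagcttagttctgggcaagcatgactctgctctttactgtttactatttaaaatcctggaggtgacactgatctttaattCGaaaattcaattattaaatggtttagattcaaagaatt
in Celf2 (chr2:6872105-6872404, plus strand): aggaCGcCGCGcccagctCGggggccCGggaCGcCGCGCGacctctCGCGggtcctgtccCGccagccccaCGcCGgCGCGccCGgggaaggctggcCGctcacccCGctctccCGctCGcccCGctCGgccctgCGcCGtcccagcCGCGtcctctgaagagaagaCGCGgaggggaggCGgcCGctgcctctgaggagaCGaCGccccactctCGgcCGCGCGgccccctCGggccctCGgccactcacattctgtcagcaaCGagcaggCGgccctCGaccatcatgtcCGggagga

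The broad domains were between 3000 and 38013 bp long, with a median of 3897 bp and quartiles of 3355 and 4894 bp. Under 4000 bp in length were 496 of them, 221 reached 5000 bp and 38 reached 10000 bp. The median of the 26809 shorter shared stretches was 797 bp. Just inside the minimum were the domains over Gm20083/Gm28746 (3000 bp), Gadd45g (3002 bp) and Isca1 (3002 bp), at fold percentiles (the rank of fold enrichment within a list) between 61.6 and 99.3. Just outside were stretches over Camk2d, in Pde4d (2998 bp) and in Ldlrad3 (2997 bp), between 90.8 and 99.2.

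Most of the longest domains lay at transcription factor genes of neural progenitors and young neurons. The longest covered C130071C03Rik, the host transcript of Mir9-2 (chr13:83712705-83750717). Its merged H3K27ac peak was 38574 and 38489 bp long in the CIN lists against 38021 and 38417 bp in the non-CIN lists. Thus its length was nearly the same in all 4 lists, where it ranked 3, 1, 2 and 2 by length. The domain with Mir9-1 was 35611 bp long, and that of Mir9-3 and its host Mir9-3hg 31464 bp. Between and after these came Meis2, a TALE homeobox gene (34705 bp), and Sox2, a factor of neural stem cells (32214 bp). The Sox2 domain (chr3:34637114-34669327) covered the whole gene and had merged peaks of 32366, 34845, 35185 and 35184 bp in CIN lists 1 and 2 and non-CIN lists 1 and 2. A domain of 25416 bp followed within Tcf4, the bHLH factor, and then domains over Nfib (22322 bp), Pou3f3 with its divergent non-coding neighbour Pantr1 (19603 bp), Nfia (19306 bp) and Nfix (19183 bp). Nfia, Nfib and Nfix belong to the nuclear factor I family, which acts in gliogenesis and neuronal maturation. Further long domains were in Gm49539/Lncppara (18729 bp), over Pantr2 (17164 bp), near Gm26913 (16979 bp), over Zbtb20 (16145 bp), over TSSs of Tcf4 (15595 and 14215 bp), and over Otx1 (15590 bp) and Pax6 (14030 bp).

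**Figure D1:**
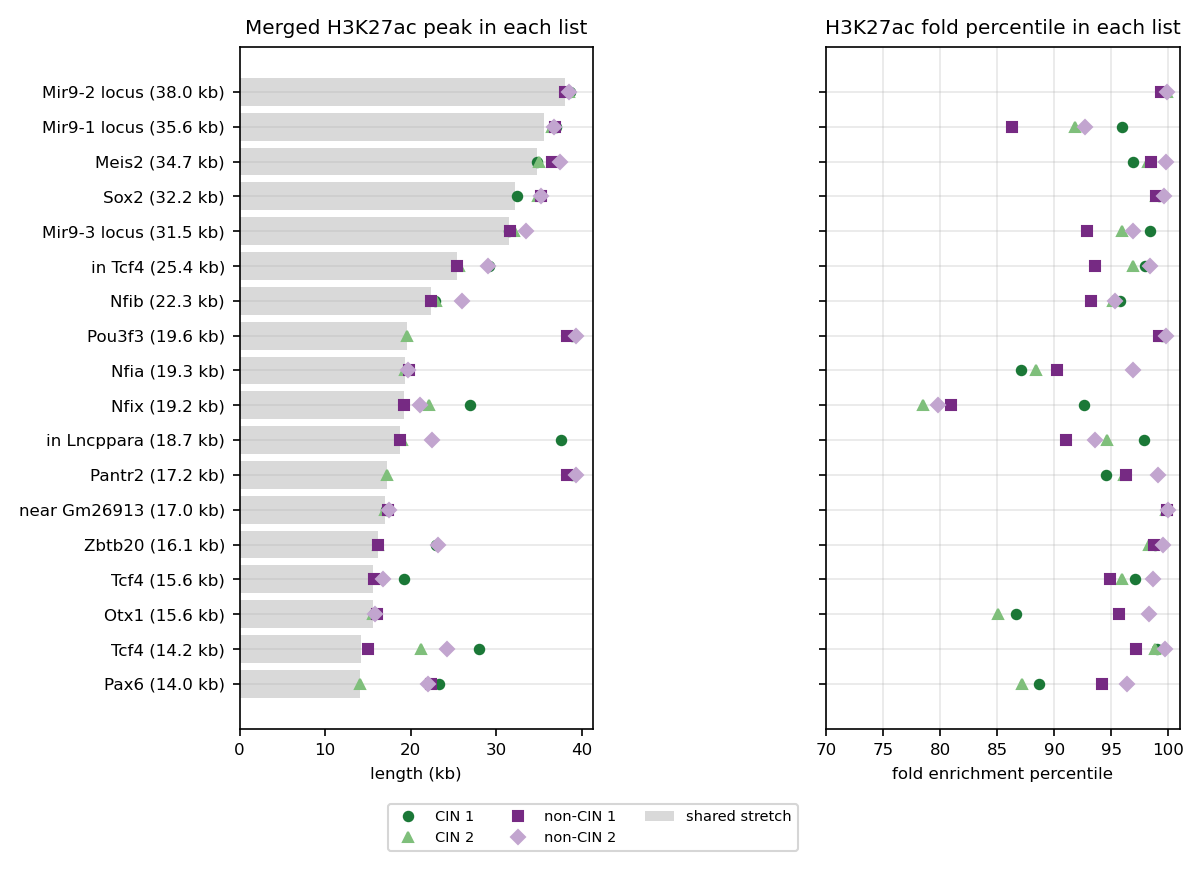
The 18 domains described here among the longest, with the length of the shared stretch in parentheses. Left, grey bars give the length of the shared stretch in kb, and points the length of the merged H3K27ac peak that holds it in each of the 4 lists. Right, points give the fold enrichment percentile in each list, on an axis that starts at 70. The merged peaks of the longest domain were between 38021 and 38574 bp in all 4 lists, whereas Pou3f3 and Pantr2 lay under 1 merged peak in 3 lists and under separate peaks in CIN list 2.

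Some domains were pieces of a longer run. Pou3f3 and Pantr2 were covered by a single merged peak of 38812 bp in CIN list 1, 38199 bp in non-CIN list 1 and 39288 bp in non-CIN list 2, which ranked 2, 1 and 1 by length. Only in CIN list 2 was the run split, into peaks of 19603 and 17164 bp. The domain in Lncppara shows the same point, with a merged peak of 37501 bp in CIN list 1 and of 18928, 18735 and 22424 bp in the others. Where domains 10000 bp or less apart were grouped, 124 of the 933 fell into 56 groups. The group with the most covered length held 4 domains at Nr2f1, an orphan nuclear receptor gene of cortical patterning and interneurons, with 48366 bp of domains in a span of 50472 bp. Those over Gm38604 and 3110006O06Rik shared a merged peak of 50876 bp in CIN list 1, the longest of that list. It was 36431 bp in CIN list 2 and 36964 bp in non-CIN list 2. In non-CIN list 1 they lay under separate peaks of 12930 and 13327 bp. Another group of 4 lay at Ptn, a secreted growth factor gene (26060 bp). By gene body, Zbtb20 met 8 broad domains (47565 bp), Tcf4 met 7 (82732 bp, or 23.9% of the gene) and Msi2, an RNA-binding protein gene of progenitors, met 7 (29244 bp). In all, 747 protein-coding genes were met by a broad domain, 99 of them by 2 or more, and 32 were covered from end to end. Those covered whole were short genes, such as Sox2, Otx1, Emx2, Sox1, Dmrta2, Sox21, Hes5, Fabp7, Sox4, Id1 and Cdkn1b.

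The domains in each population were thus at the top of its list by length, as the rule requires. The merged peaks that held them were within the longest 4.44% and 3.62% of merged peaks in CIN lists 1 and 2 and the longest 4.48% and 5.23% in non-CIN lists 1 and 2. Of all merged peaks of at least 3000 bp, 37.7% and 63.4% in CINs against 40.8% and 44.3% in non-CINs held a broad domain, so a large part of the long peaks of any list was not shared at this length by all 4. Most domains were single deposited peaks, with 582, 491, 550 and 610 of 933 under 1 peak in CIN lists 1 and 2 and non-CIN lists 1 and 2. The merged peak was longer in both non-CIN lists than in both CIN lists for 338 domains, and the reverse held for 91. The same count was not made for shorter stretches. The lists differ in size, and the difference in length between populations was not tested.

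A TSS lay inside 587 of the 933 broad domains (62.9%, 95% Wilson interval 59.8–66.0%), and inside 29.6% (29.0–30.1%) of the shorter shared stretches. A longer stretch offers more positions for a TSS. By length class the share was 15.3% under 1000 bp, 50.5% from 1000 bp and 57.9% from 2000 bp, then 60.1% from 3000 bp, 61.3% from 4000 bp, 74.5% from 6000 bp and 81.6% from 10000 bp upward. Per kb, TSS positions were 0.517 under 1000 bp, then 0.799 from 1000 bp, and fewer in each class after that, with 0.583 from 2000 bp, 0.451 from 3000 bp and 0.194 from 10000 bp upward. Thus the longest domains reached far from the start sites that they held. In 511 domains (54.8%) a protein-coding gene had a TSS, and in 76 (8.15%) only non-coding genes did, beside 2.31% of shorter stretches. For the 445 domains with the TSSs of a single protein-coding gene, the median was 1030 bp upstream of the outermost start and 2913 bp downstream of it. More of the domain lay downstream in 372 of them (83.6%). A few of the longest were the other way round. Pou3f3 had 18487 bp upstream and 1115 bp downstream, Nfix 16730 and 2452 bp, the longer Nr2f1 domain 12757 and 479 bp, and Pou3f2 10840 and 1589 bp. In contrast, Meis2 had 10666 bp upstream and 24038 bp downstream. For those with more upstream, the place where a stretch ended mattered. At Pou3f3, Nr2f1 and Pou3f2 a separate broad domain followed downstream, and 2 domains covered 93.2%, 86.7% and 89.7% of the gene. The other Nr2f1 domain had 476 bp upstream and 8395 bp downstream. The Nfix domain lay wholly within the gene, with 19183 of its 100469 bp covered, so its upstream part was also gene body.

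The other 346 domains held no annotated TSS. Of these, 190 were intronic, 83 met both exons and introns and 73 were between genes. The nearest TSS was at a median of 16418 bp, within 10000 bp for 126 and more than 100000 bp away for 22. Their median length (3834.5 bp) was close to that of domains over TSSs (3974 bp). The 5 longest were those in Tcf4 (25416 bp), in Lncppara (18729 bp), near Gm26913 (16979 bp, 56728 bp from the nearest TSS), in Celf2 (11265 bp) and near Gm29260 (10638 bp, 28883 bp from the nearest TSS). Celf2 encodes an RNA-binding splicing factor.

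In sequence, domains over TSSs had a median GC content of 52.6% and a CpG observed over expected ratio of 0.556, beside 57.5% and 0.710 in shorter stretches over TSSs. Off TSSs these values were 45.9% and 0.244 in broad domains and 48.3% and 0.256 in shorter stretches. The centre of a long domain is often not its promoter. In the central 300 bp, domains over TSSs had a median GC content of 52.3%, whereas that of shorter stretches over TSSs was 64%.

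By the fixed gene lists, 16 of 25 transcription factors of newborn neurons (64.0%) had a TSS in a broad domain, and 21 in any shared stretch. Over all 21910 protein-coding genes these numbers were 567 (2.59%) and 8577. The lists hold genes known to be used in this tissue, and were chosen with earlier results of these data known, so the counts describe them and nothing more. After the genes already named, the list gave, among others, Pou3f2 (12430 bp), Zeb2 (10536 bp), Sox4, Bcl11a, Sox11, Klf7, Sox12 and Mef2d. Among astrocyte and radial glia genes 10 of 17 were in broad domains, led by the receptor gene Notch1 (12228 bp), its target Hes5 (7449 bp), Sox9 (7097 bp) and Fabp7, a fatty acid binding protein of radial glia (6775 bp). Non-coding RNA hosts gave 6 of 13, among them Mir99ahg (8614 bp), Malat1 (6330 bp) and Neat1 (4698 bp).

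Other lists had smaller shares. Of 23 genes of the neuronal cytoskeleton and growth cone 6 were in broad domains, led by the tubulin gene Tubb2b (6036 bp) and by Marcks (5197 bp). Immediate early genes gave 5 of 16 (Ier2, Klf6, Jun, Jund and Fos), genes used constitutively 7 of 23, among them Ptma (4534 bp) and Actb (3496 bp), RNA-binding and splicing genes 6 of 23, and synapse and adhesion genes 3 of 20. For identity genes of the populations themselves, of 23 interneuron genes 3 were in broad domains, among them Nr2f1 (13237 bp) and Sox6 (8949 bp), and of 20 pyramidal neuron genes 5 (Pax6, Emx2, Lmo3, Rorb and Foxp2). Of those with a TSS in any shared stretch, these were 3 of 6 and 5 of 7, and the difference between lists was not tested. Olig2 (5294 bp) was the only one of 10 genes of the oligodendrocyte lineage, and Ep300, a histone acetyltransferase gene, the only one of 12 H3K27 enzyme genes. No gene of microglia or of endothelial cells and pericytes was among them.

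Gene families were also counted by words in the RefSeq descriptions, a choice made after the domains had been seen. Of the 22 genes described as homeobox that had a TSS in any shared stretch, 11 were in a broad domain, as were 8 of 10 SOX genes, 3 of 3 nuclear factor I genes and 3 of 3 POU domain genes. Over all genes with a description the share was 6.57% of 8330. Genes described as ribosomal proteins, those of mitochondria included, gave 1 of 144 (Mrps18b). Zinc finger genes were at 5.96% of 436.

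Fold enrichment over input was compared as a percentile, the rank of a domain's bp-weighted mean fold among all peaks of its own list. Broad domains had median percentiles of 89.3 and 87.6 in CIN lists 1 and 2, with 90.6 and 92.3 in non-CIN lists 1 and 2. For shorter shared stretches they were 72.9, 64.1, 73.4 and 66.4. The lists are those that chose the domains, so this is a description. Length and percentile were only loosely related among the domains, with Spearman's rho across the 933 of 0.0567, 0.0725, 0.0924 and 0.191 in the 4 lists. Nfix is an example. Its domain of 19183 bp was at percentiles of 92.6, 78.4, 80.9 and 79.8, below the median domain in 3 of the 4 lists.

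The domains with the highest ranks in all 4 lists were not the longest. Arrdc3, an arrestin-domain gene, led with a domain of 5427 bp at percentiles 99.98 and 99.98 in CINs against 99.96 and 99.98 in non-CINs. Klf6, an early response transcription factor gene (4317 bp), was at 99.96, 99.96, 99.80 and 99.91. Others of the highest 10 were in Gm44734, near Gm26927, near Gm25942, over C530044C16Rik, Mir99ahg, Tsc22d1 and Gm17750, and near Gm26913. The last was also the fifteenth longest, at 99.84, 99.84, 99.89 and 99.99. In all 4 lists 127 domains were above the 95th percentile. Between lists, the domains kept their order better within a population (rho 0.862 between the CIN lists and 0.85 between the non-CIN lists) than between populations (0.530 to 0.797), where the lowest was between CIN list 1 and non-CIN list 2.

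**Figure D2:**
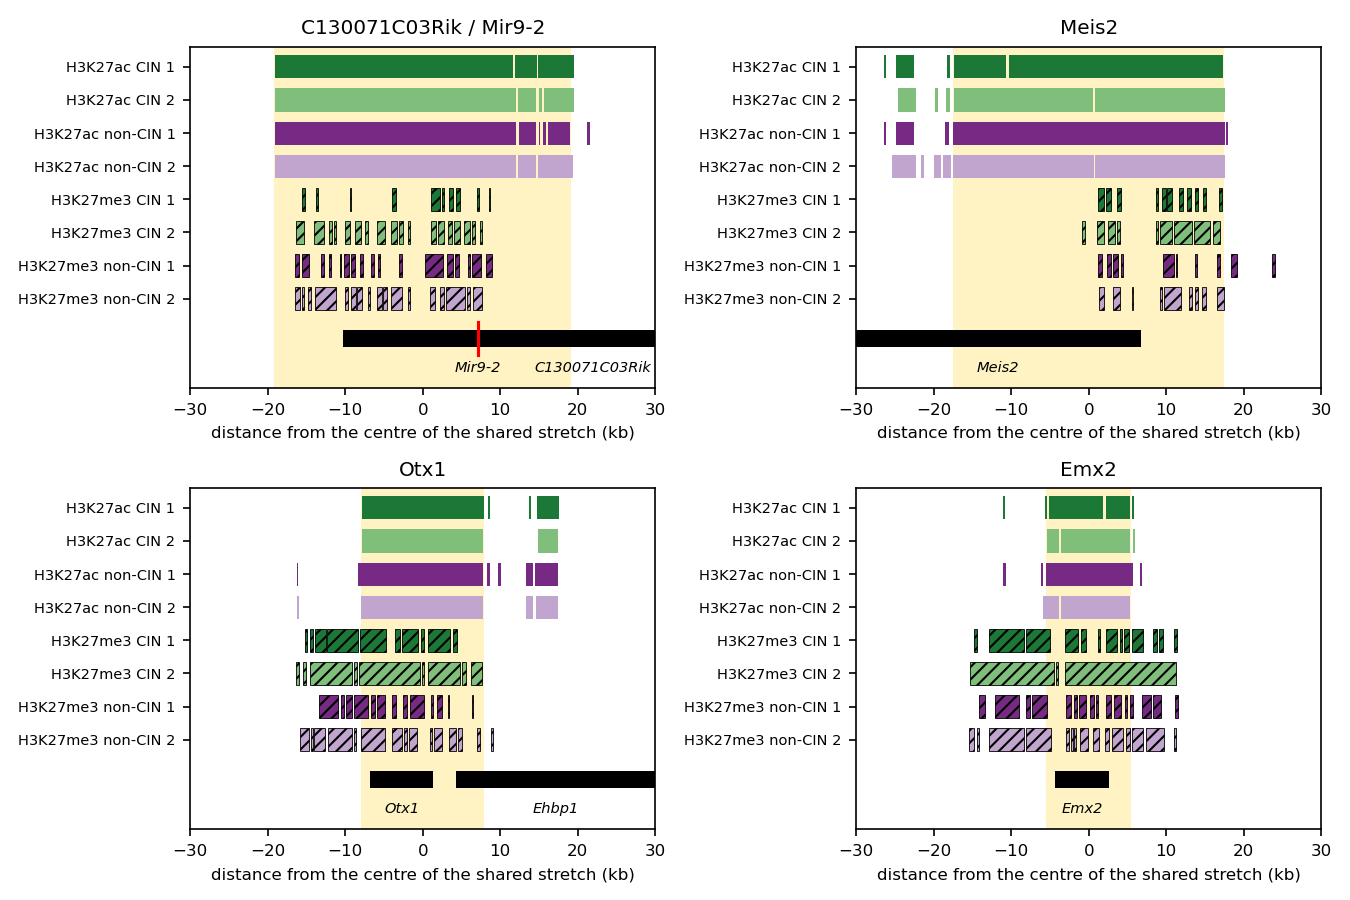
Deposited peaks of the 8 lists around 4 broad domains, against the distance in kb from the centre of each domain. The shaded span is the shared stretch, plain bars are H3K27ac peaks, hatched bars H3K27me3 peaks and black bars genes, with Mir9-2 marked in red. H3K27ac was nearly continuous across each domain in all 4 lists. H3K27me3 was mostly in separate pieces, and covered more of the Otx1 and Emx2 domains than of the Mir9-2 and Meis2 domains. In CIN list 2 a single H3K27me3 peak lay over a large part of the Emx2 domain, and another over a large part of the Otx1 domain.

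The next question was which of the shared domains ranked higher in one of the populations. The rule sets no direction between them, although the values come from the same lists. The percentiles were put on a normal scale (probit) and compared with limma over all 27699 shared stretches with a peak in each list, with population and replicate as terms. At an adjusted p under 0.05, 134 of 933 broad domains (14.4%) were higher in non-CINs, beside 6.04% of all stretches tested. Only 29 (3.11%) were higher in CINs, beside 6.07% of all. The calls rest on the replicate block, and their number also moves with the merging gap. With no gap, 9 of the 521 domains then left passed as higher in non-CINs and 4 as higher in CINs. Followed in the no-gap stretch of any length that overlapped them most, the 10 domains with the largest difference towards non-CINs still passed, as did those towards CINs other than the domains in Adk and both of Trim2. Without the block, 0 and 2 domains passed, beside 0.0433% and 0.35% of all stretches, with 149 and 32 at an unadjusted p under 0.05. With a list left out and no block, between 0 and 58 domains passed as higher in non-CINs and between 0 and 6 as higher in CINs, and none in either direction without CIN replicate 1. The percentiles of the 2 populations did not overlap for 412 domains higher in non-CINs (44.2%), where 26.9% of all stretches did so, and for 141 higher in CINs (15.1%), where 18.2% did.

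**Figure D3:**
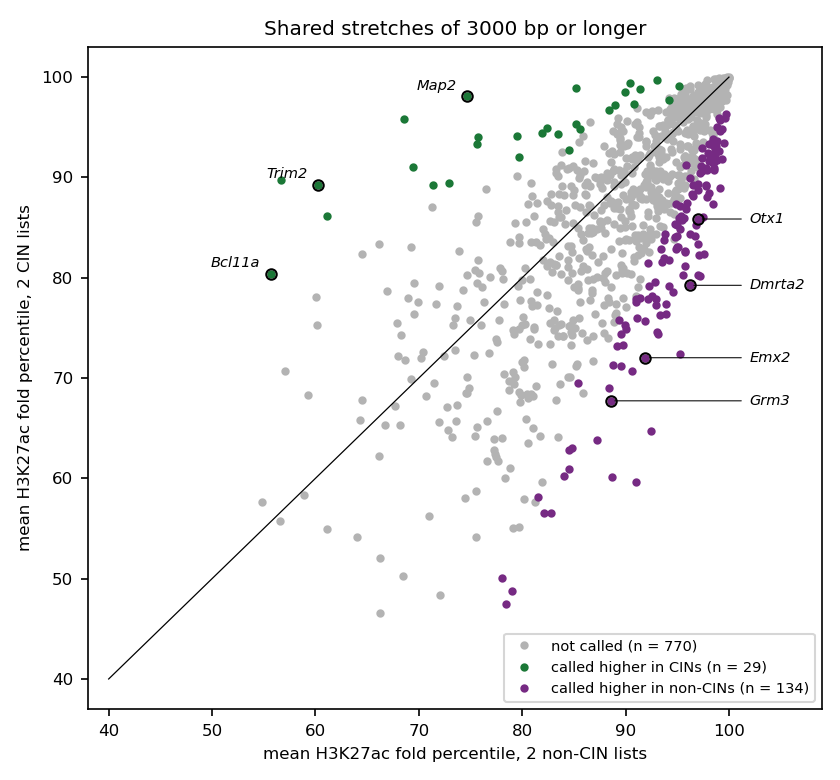
Mean H3K27ac fold percentile of each of the 933 broad domains in the 2 CIN lists (vertical) against the 2 non-CIN lists (horizontal). The line marks equal values, green points the 29 domains called higher in CINs and purple points the 134 called higher in non-CINs. Named domains are circled, among them Map2 above the line, and Emx2 and Otx1 below it.

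By gene of the fixed lists, a domain over a TSS was called higher in CINs for 1 of 6 cytoskeleton, 1 of 3 synapse and 1 of 16 newborn neuron factor genes. No gene of the other lists had one. Over all 567 protein-coding genes with such a domain, 17 had one called, and of all domains 3.11% were. On the probit scale, the largest difference towards CINs was at the 5′ end of Map2, a microtubule-associated protein gene of dendrites (chr1:66174894-66178442, 3549 bp). It stood at percentiles of 99.4 and 96.8 in CINs against 73.3 and 76.0 in non-CINs. The difference was 1.51 ± 0.20 (SE) on the probit scale (adjusted p = 2.1e-11, and 0.030 without the block). A second domain over a downstream TSS of Map2 (4152 bp) was at 99.3 and 99.0 against 93.9 and 96.4 (adjusted p = 0.029, and 0.25 without the block). Cd24a, a cell surface glycoprotein gene of young neurons, was at 99.5 and 98.4 in CINs against 88.6 and 81.7 in non-CINs, and was the other domain that passed without the block (adjusted p = 0.048).

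Trim2, a ubiquitin ligase gene, had a domain at its TSS with percentiles of 95.8 and 82.7 in CINs against 58.5 and 62.0 in non-CINs, and another in an intron with 95.9 and 86.2 against 67.4 and 71.6. A domain in an intron of Zeb2, a transcription factor gene needed for interneuron migration, was at 91.6 and 87.8 against 59.0 and 54.3, whereas the 10536 bp domain over the TSS of Zeb2 did not pass (94.7 and 91.5 against 93.1 and 92.4, adjusted p = 0.93). With a merging gap of 1000 bp the intronic call was lost, and the difference went from 1.11 to 0.28 on the probit scale. Its merged peak was 14800, 15074 and 15278 bp long in 3 lists, which is longer than either domain, and 3824 bp in non-CIN list 2. Gria2, which encodes an AMPA receptor subunit, was at 99.3 and 98.3 against 88.7 and 94.1. The rest of the 10 largest on the probit scale were in Prkd3 and Adk and over Sde2 and Mex3b, an RNA-binding protein gene. From the fixed lists, Bcl11a, a zinc finger factor of cortical neurons, was at 87.1 and 73.7 in CINs against 51.7 and 59.6 in non-CINs (adjusted p = 0.037), and Dlg4, a postsynaptic scaffold gene, at 95.3 and 95.2 against 85.9 and 84.4 (adjusted p = 0.020). In each of these called domains both CIN lists were above both non-CIN lists. Of the domains over TSSs 3.58% were called higher in CINs, and of those off TSSs 2.31%, whereas in shorter stretches the shares were 4.77% and 6.76%. With no gap in merging, Bcl11a, Dlg4, the second Map2 domain, both Trim2 domains and that in Adk did not pass, although the difference was not smaller for Bcl11a (1.14 against 0.74), Dlg4 (0.82 against 0.63) and Adk (1.14 in both).

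Among domains higher in non-CINs, those off TSSs had the larger share, with 80 of 346 called (23.1%) and 54 of 587 (9.20%) over TSSs. Shorter stretches also had the larger share off TSSs, 7.32% against 2.03%. Of the 10 with the largest difference on the probit scale, 5 were between genes, near Gm29260, Gm5043, AC132455.3, Gm18891 and Gm12495. The one near Gm29260 (3701 bp, 104148 bp from a TSS) was at 90.1 and 96.7 in CINs against 99.1 and 99.9 in non-CINs. Over TSSs were Lxn, a carboxypeptidase inhibitor gene (76.3 and 84.2 in CINs against 94.9 and 99.1 in non-CINs, adjusted p = 1.5e-06 with the block and 0.093 without), Fars2, a mitochondrial tRNA synthetase gene (80.3 and 94.4 against 97.2 and 99.8), and AC134446.1. A domain within Nr2e1, a nuclear receptor gene of neural stem cells, was at 53.9 and 65.5 against 90.9 and 91.1, and a domain in an intron of Thada at 74.7 and 85.6 against 96.5 and 97.8.

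Of the fixed lists, domains over TSSs of 2 of 10 astrocyte and radial glia genes, 1 of 5 pyramidal neuron genes and 1 of 16 newborn neuron factors were called higher in non-CINs. So were those of 1 of 6 RNA-binding genes, 1 of 6 non-coding RNA hosts (a domain of Mir99ahg) and the 1 oligodendrocyte gene, and none in the other lists. Over all 567 protein-coding genes with such a domain, 44 had one called, and of all domains 14.4% were. Otx1, a homeobox gene of deep-layer cortex, had a domain (chr11:21993720-22009309) at percentiles 86.6 and 85.1 in CINs against 95.7 and 98.3 in non-CINs, a difference of -0.85 ± 0.20 (SE) on the probit scale (adjusted p = 0.00093 with the block, 0.16 without). Emx2, a homeobox gene of cortical progenitors (chr19:59457319-59468080), was at 72.4 and 71.6 against 89.3 and 94.5 (adjusted p = 0.0014 with the block, 0.18 without). The merged peak of Otx1 was nonetheless of almost the same length in both populations, 15728 and 15634 bp against 16092 and 15838 bp. Pax6, also among the longest, did not pass, at 88.6 and 87.2 against 94.2 and 96.4 (adjusted p = 0.071). From the fixed lists, the domains of Id1 and of the glutamate transporter gene Slc1a3 in the glial list, Pou3f2, Nova1 and Olig2 were also called higher in non-CINs. With no gap in merging, Otx1, Emx2, Slc1a3, Pou3f2, Nova1 and Olig2 did not pass, at differences of -0.85, -0.85, -0.71, -0.77, -0.68 and -0.72 on the probit scale against -0.85, -0.84, -0.66, -0.65, -0.64 and -0.77 with the gap. Pou3f2 also lost the call with a gap of 1000 bp (-0.50), with stricter H3K27ac peaks (-0.72) and on log2 fold. The other 8 glial domains, among them Slc1a2 of the same transporter family (71.4 and 65.5 against 75.3 and 86.4), did not pass. Some of these are genes of glia, cells that the GFP- fraction also holds, and the part of glia in the result was not tested. H3K27ac peaks lay over TSSs of 14 and 13 of the 17 astrocyte and radial glia genes in CINs and of 13 and 15 in non-CINs.

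H3K27me3 was called inside 81, 119, 97 and 85 of the 933 broad domains in CIN lists 1 and 2 and non-CIN lists 1 and 2. In all 4 lists it was present in 52 (5.57%, 4.28–7.24%), whereas 183 of 26809 shorter stretches (0.683%, 0.591–0.788%) had it in all 4. No H3K27me3 list met 786 of the domains. A longer stretch meets a peak more often, so the covered length was compared too. H3K27me3 peaks covered 3.72% and 7.55% of the domain bp in CINs against 4.08% and 5.34% in non-CINs, and 0.786%, 1.19%, 0.738% and 0.812% of the bp of shorter stretches. Over TSSs the domains were covered for 5.19%, 10.01%, 5.68% and 7.01% of their bp and the shorter stretches for 0.872%, 1.05%, 0.844% and 0.638%. The share was higher in longer classes. From 10000 bp upward, 15 of 38 domains (39.5%) had H3K27me3 in all 4 lists and 9.34%, 21.5%, 13.99% and 18.1% of their bp were covered. From 3000 bp to under 4000 bp, it was 12 of 496 (2.42%) and 1.59%, 2.80%, 1.44% and 1.82% of bp. Whether the 2 marks lay on the same nucleosomes or in the same cells cannot be told apart in peak lists of mixed cells.

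At the longest domains the cover was partial. At the Mir9-2 domain H3K27me3 peaks lay over 11.2% and 29.9% of the bp in CINs against 27.6% and 36.4% in non-CINs. At Sox2 they lay over 13.5% and 59.0% against 20.3% and 48.1%. At both domains the list of replicate 2 covered more than that of replicate 1. At Meis2 they lay over 15.4% and 28.3% against 12.6% and 18.1%. No H3K27me3 peak was called in any of the 3 Tcf4 domains named above or in that of Zbtb20. The list of replicate 2 covered more than that of replicate 1 in both populations in 37 of the 52 domains with H3K27me3 in all 4 lists.

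In 10 domains H3K27me3 covered at least 50% in every list. A pair of them over Sfi1 and one over Gm26917 were covered whole in all 4 H3K27me3 lists as well as in all 4 H3K27ac lists. Whether reads at these 3 domains come from a single place in the genome was not tested. Without them the share with H3K27me3 in all 4 lists was 5.27%. The others were 2 domains of the Olig2 locus, the larger of which was covered over 100% and 100% in CINs against 83.1% and 75.3% in non-CINs, and those over Gm45560, over Gm38604 and 3110006O06Rik next to Nr2f1, over Dmrta2 and over Rfx4. Dmrta2 and Rfx4 encode transcription factors of cortical progenitors.

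H3K27me3 comes from a separate precipitation and was not used to call the domains. Of the 52 domains with it in all 4 lists, 14 (26.9%) were called higher in H3K27ac in non-CINs and 2 (3.85%) in CINs, beside 14.4% and 3.11% of all domains and 6.04% and 6.07% of all stretches. Of shorter stretches with H3K27me3 in all 4 lists, 4.95% and 14.3% were called. For 13 of the 14, H3K27me3 covered more of the domain in CINs than in non-CINs in both replicates, and for none was it the reverse. The exception, in Sox1ot, had 17.4% in CINs and 17.6% in non-CINs in replicate 1. The 14 were not all separate loci, since 2 of them were neighbours at Olig2 and 2 at Nr2e1. Of the 36 domains not called, 12 had more in CINs in both replicates and 8 more in non-CINs. Shorter stretches with H3K27me3 in all 4 lists and H3K27ac called higher in non-CINs numbered 9, of which 6 had more H3K27me3 in CINs in both replicates and 1 had less. In the opposite case, the 2 domains called higher in CINs split 1 and 1, and of 26 shorter stretches called higher in CINs 8 had more H3K27me3 in non-CINs in both replicates and 3 had less. The H3K27me3 lists covered 34.4 and 44.2 Mb of the genome in CINs against 39.4 and 49.8 Mb in non-CINs, and the part of this in the counts was not tested. No exact test between 2 lists and 2 lists can give p below 0.333, and these counts are descriptions.

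Emx2 is an example. H3K27me3 covered 50.8% and 88.9% of its domain in CINs against 42.9% and 53.0% in non-CINs. At Otx1 it covered 60.8% and 88.2% against 40.4% and 55.3%, and both CIN lists were above both non-CIN lists. Dmrta2 was alike, with 89.5% and 94.3% against 64.8% and 65.2%, as were Rfx4 (66.4% and 77.8% against 57.7% and 57.9%) and Prdm16, a progenitor factor gene (39.3% and 65.0% against 15.9% and 17.6%). At Grm3, a metabotropic glutamate receptor gene, it covered 65.6% and 91.9% against 21.2% and 55.5%, and at Sox21 72.6% and 77.2% against 32.4% and 50.8%. For Emx2, the CIN value of replicate 1 was below the non-CIN value of replicate 2, so the populations overlapped and only the order within each replicate was the same.

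**Figure D4:**
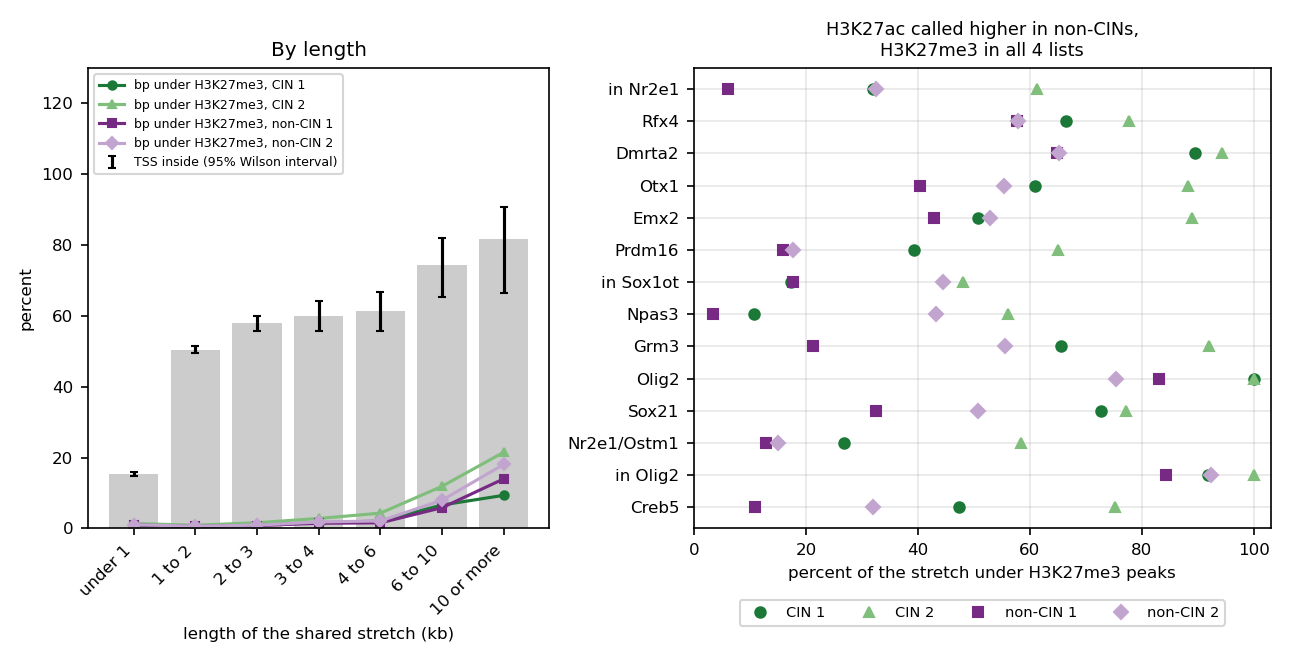
Left, the percent of shared stretches with a TSS inside (bars, with 95% Wilson intervals) and the percent of their bp under H3K27me3 peaks in each list (points joined by lines), by length class in kb. Right, the percent of each domain under H3K27me3 peaks in the 4 lists, for the 14 domains called higher in H3K27ac in non-CINs that had H3K27me3 in all 4 lists. CIN points lie to the right of the non-CIN points of the same replicate in 13 of the 14.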

How the data were processed

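H3K27ac and H3K27me3 were profiled by native ChIP in CINs and non-CINs (2 replicates each, 8 peak lists). The 4 input samples entered only through peak calling. Reads were mapped by the authors to mm10 (BWA mem 0.7.15). They kept those of mapping quality 30 or more with samtools, and called broad peaks per replicate with MACS2 (2.2.7 in the submitters' processing notes), with no model, no local background, 200 bp extension and a q cutoff of 0.01. As deposited, each peak has a score (10 times the −log10 q, cut to a whole number, in all but 33 of 376998 peaks), a fold enrichment (a ratio of ChIP to input made by the authors' peak caller) and −log10 p and −log10 q values. None is a read count.

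Peaks 500 bp or less apart were merged per list, and stretches in all 4 H3K27ac lists of at least 3000 bp were kept. Fold enrichment was ranked within its own list and used as a percentile. Its probit was fitted with limma 3.58.1 in R 4.3.3 (lmFit, eBayes with trend, population plus replicate block, Benjamini-Hochberg over 27699 stretches, two-sided). The series' labels describe 2 independent replicate experiments, and differences between replicates correlated between populations (r = 0.242 over all stretches, 0.463 over the domains). Nothing says which animals separate the replicates beyond pooled litters. With both terms fitted to 4 lists, p values rest on how the population difference varied between the 2 replicates, moderated by limma over all stretches. They do not rest on a known spread between animals. 43 stretches with no peak in some list were not tested. Genes came from GENCODE vM21 basic and sequence from GRCm38.p6, the same build as mm10, in whose lengths all peaks on 21 chromosomes lie. Python 3.11.15, NumPy 2.4.6, SciPy 1.17.1, pandas 2.3.3 and matplotlib 3.10.9 were used, and interval steps (against bedtools 2.31.1) and limma were tested on simulated data.

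Domains named were the 20 longest, the 10 highest by their lowest percentile, the 5 longest off TSSs, up to 10 in each direction by limma, the 10 with the most H3K27me3, 3 on each side of 3000 bp, and those over genes of 14 fixed lists, up to 4 for each list. Other genes were named after their values were seen, to complete a count or a comparison. A domain was named by the protein-coding genes with a TSS inside, or by other genes with one, or by the gene it lay in, or by the nearest TSS. Results for some items among them are not reported here. The domains and lists were chosen with earlier results of these data known. Alternatives were other gaps, lengths, thresholds, TSS definitions and fits, and each list left out.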

Additional observations from a re-analysis of the deposited data

How the results depend on the processing

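The number of domains was 521 with no gap in merging, 2957 from 2000 bp and 221 from 5000 bp, and the other settings, each list left out included (995 to 1151), kept it within 1.5 times of 933. The share over a TSS was 55.1% with no gap, 59.5% from 2000 bp, 72.4% from 5000 bp and 54.8% with TSSs of protein-coding genes only (60.2 to 63.8% with a list left out). The share with H3K27me3 in all 4 lists was 4.18% with a gap of 1000 bp, 2.57% from 2000 bp, 15.8% from 5000 bp, 1.07% where 50% of the domain had to be covered and 3.11% with H3K27me3 peaks of −log10 q 4 or more (4.52 to 5.53% with a list left out). With no replicate block, the limma calls fell to 2 domains higher in CINs and 0 higher in non-CINs, so the pairing of replicates decides whether they pass. With no gap they were 4 and 9, from 2000 bp 119 and 336, from 5000 bp 3 and 41, and with H3K27ac peaks of −log10 q 4 or more 18 were higher in CINs. With a list left out and no block they ranged from 0 to 6 in CINs and from 0 to 58 in non-CINs. Without CIN replicate 1 both were 0, without CIN replicate 2 they were 5 and 3, without non-CIN replicate 1 6 and 58, and without non-CIN replicate 2 6 and 0. Ranked by the strongest peak, the CIN medians were 90.6 and 90.3 and the non-CIN medians 92.4 and 93.7. The cause was not tested in any of these. Over all settings, the 30 named domains lost the call in 144 of 330 fits. Lists of calls limit what can be seen: signal under the authors' threshold is absent from them, no read depth was used, and 2 lists a population leave the spread poorly known.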
